A study of Homo sapiens with 6 samples.

Results

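Open chromatin was followed at the loci of 8 immediate early regulators in K562 cells treated with phorbol 12-myristate 13-acetate (PMA): SRF, EGR1, EGR2, EGR3, EGR4, NAB2, IER2 and IER3. The members were all sites in the authors' deposited table of ATAC-seq counts that overlapped the RefSeq body of one of these genes or the 50 kb on either side of it, which gave 148 of the 181135 sites. The loci held 17 sites at SRF, 14 at EGR1, 14 at EGR2, 23 at EGR3, 10 at EGR4, 19 at NAB2, 25 at IER2 and 26 at IER3. A site within 1000 bases of a RefSeq start of its gene was taken as a promoter site (11 sites), a further site as near to the start or end of another protein-coding gene as a neighbour gene end (28 sites), and the rest as distal (109 sites, of which 5 lay over the member's own gene body). Sites at the member's own 3′ end, as at EGR1 and EGR2, thus count as distal. K562 is a human line established from a chronic myelogenous leukaemia, and ATAC-seq counts reads at DNA that a transposase could reach. The groups were wild-type K562 after 0, 6 and 72 h in 25 nM PMA, a phorbol ester activator of protein kinase C given here to induce megakaryocyte differentiation, with 2 libraries per time. All groups thus shared 1 line and 1 genotype and differed in time, and no library lay between 0 and 6 h. The labels do not say whether the 2 libraries of a time came from separate cultures, so p-values measure only the spread between these libraries, which may be technical.

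Immediate early genes are transcribed within minutes of a stimulus without new protein synthesis. Protein kinase C feeds the ERK kinase cascade, ERK phosphorylates ternary complex factors such as ELK1, and these sit with SRF (serum response factor) on the CArG box, an A- and T-rich core between CC and GG, in the promoters of such genes. EGR1 to EGR4 are zinc-finger transcription factors that bind a GC-rich site, and NAB2 is a corepressor that binds EGR proteins and is itself an EGR target, which closes a feedback loop. IER2 and IER3 are further immediate early genes, IER2 encoding a nuclear protein and IER3 a regulator of survival and stress signalling. ATAC-seq measures none of their transcripts or proteins.

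The RefSeq promoter table (GRCh38.p14; 250 bases before to 50 after each start) held entries for 6 of the 8 genes, and none for EGR3 and IER3. The upstream 250 bases of 5 genes are given because each stretch lies inside a promoter site described below and because the genes differ in their CArG boxes and EGR sites. Capitals mark CArG boxes and matches to the EGR site GCGNGGGCG on either strand, and each sequence reads 5′ to 3′ along its gene.
SRF, chr6:43171019-43171268, plus strand: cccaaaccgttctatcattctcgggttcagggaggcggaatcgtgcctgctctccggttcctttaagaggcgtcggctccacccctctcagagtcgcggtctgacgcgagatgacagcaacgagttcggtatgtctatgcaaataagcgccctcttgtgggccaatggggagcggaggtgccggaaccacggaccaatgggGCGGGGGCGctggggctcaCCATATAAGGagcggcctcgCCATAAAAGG
EGR1, chr5:138465229-138465478, plus strand: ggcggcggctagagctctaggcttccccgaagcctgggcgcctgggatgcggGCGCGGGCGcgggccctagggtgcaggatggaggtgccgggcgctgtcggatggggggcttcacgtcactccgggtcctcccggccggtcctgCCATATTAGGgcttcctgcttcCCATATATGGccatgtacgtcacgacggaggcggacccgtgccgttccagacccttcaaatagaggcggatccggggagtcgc
EGR2, chr10:62816367-62816616, minus strand, innermost start: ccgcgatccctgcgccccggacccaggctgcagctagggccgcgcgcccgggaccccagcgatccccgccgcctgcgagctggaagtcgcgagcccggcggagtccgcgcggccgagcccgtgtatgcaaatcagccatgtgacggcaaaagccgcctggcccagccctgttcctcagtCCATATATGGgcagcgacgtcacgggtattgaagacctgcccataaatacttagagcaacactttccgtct
EGR4, chr2:73293549-73293798, minus strand: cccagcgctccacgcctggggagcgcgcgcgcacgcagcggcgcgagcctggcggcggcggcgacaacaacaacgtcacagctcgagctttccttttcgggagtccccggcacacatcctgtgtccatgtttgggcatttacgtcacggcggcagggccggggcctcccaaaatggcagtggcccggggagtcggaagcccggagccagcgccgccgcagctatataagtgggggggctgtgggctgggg
NAB2, chr12:57088864-57089113, plus strand: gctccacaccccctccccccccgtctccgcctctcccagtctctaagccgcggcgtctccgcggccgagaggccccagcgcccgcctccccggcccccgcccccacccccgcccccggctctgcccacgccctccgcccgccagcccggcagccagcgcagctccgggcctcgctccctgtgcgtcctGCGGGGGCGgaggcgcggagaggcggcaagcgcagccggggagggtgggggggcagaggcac

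The CArG box is rare in promoters, at 1.29% of the 35116 RefSeq promoters of this length, and 3 of the 6 genes with an entry held one. With the last upstream base counted as -1, EGR1 had CCATATTAGG at -105 to -96 and CCATATATGG at -83 to -74, and SRF had CCATATAAGG at -30 to -21 and CCATAAAAGG at -10 to -1. EGR2 had CCATATATGG at -71 to -62 of its innermost start and no match at its outer starts. The EGR site, held by 9.43% of promoters, lay at -198 to -190 in EGR1, -49 to -41 in SRF and -62 to -54 in NAB2, and at 8 to 16 past the middle start of EGR2. SRF also held the ETS core CCGGAA (17.2% of promoters) at -70 to -65, and IER2 held it on the other strand at -26 to -21. EGR4 held none of these motifs in this window. No entry of the 6 genes held the AP-1 site TGANTCA (7.71% of promoters) or the CRE TGACGTCA (1.85%), and the outermost EGR2 entry held AGATAA (10.3%) at -196 to -191 and -127 to -122, read on the other strand. No match overlapped another motif. These are letter matches in the reference and not measured binding.

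Library totals over all sites ran from 12258890 counts in replicate 1 at 6 h to 35548737 in replicate 2 at 72 h, and the 2 libraries at 6 h differed most. Levels below are CPM, counts scaled to the TMM library size, and fold changes are log2 values from edgeR's quasi-likelihood model of all 177759 sites that passed its count filter. Sites with an adjusted p (Benjamini-Hochberg) under 0.05 were called. The start site of GATA1, an erythroid and megakaryocytic factor, held 13.5 and 12.8 CPM at 0 h, 2.81 and 3.61 after 6 h, and 5.38 and 4.51 after 72 h, and whether this change bears on the loci below was not tested. The scaling between libraries mattered for direction: over all tested sites the median log2 change from 0 to 72 h was 0.29 under TMM and ran from -0.04 (loess offsets) to 1.26 (TMM factors taken only from sites with a peak in every library, the shared-peak factors) over 5 scalings, and at 6 h it was 0.05 and ran from -0.11 to 0.35. Tested sites at protein-coding gene starts had a lower median, -0.38 at 6 h and -1.23 at 72 h under TMM, with a range at 72 h from -1.42 to -0.27. Each promoter value is therefore read beside all gene-start sites under TMM, and the number of the 5 scalings that called it is given.

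At 6 h, promoter sites of EGR2, EGR3, EGR4 and IER3 were called higher than at 0 h, those of SRF and NAB2 were called lower (NAB2 with a positive value under loess offsets), and the main EGR1 and EGR2 sites and IER2 were not called. edgeR called 5 of the 11 promoter sites higher and 2 lower, where 7.46% of tested gene-start sites were called higher and 39.8% lower (over all tested sites, 23.4% higher and 16.8% lower). Against 0 h, 2 promoter sites were called higher at 72 h and 7 lower, where gene starts gave 8.37% higher and 75.7% lower (all tested sites, 38.2% and 29.2%). Between 6 and 72 h, 10 of 11 were called lower and the EGR4 site was not called, where gene starts gave 4.37% higher and 68.9% lower (all tested sites, 22.1% and 20.9%). Both comparisons with 0 h share the 0 h libraries, and the 11 sites belong to 8 genes. The split moved with scaling: at 6 h it was 2 higher and 3 lower with RLE size factors, 6 and 1 with total counts, 7 and 0 with loess offsets, and 7 and 1 with shared-peak factors. At 72 h against 0 h it was 2 and 8, 3 and 5, 6 and 2, and 5 and 3 in the same order, and between 6 and 72 h it was 0 and 10, 0 and 8, 0 and 3, and 0 and 3, with all 11 log2 values negative under TMM (-1.51 to -0.15). In bulk cells, more cells with an open site and more open DNA per cell cannot be told apart. Lack of overlap between the libraries of 2 times, described below, was common. It held for 104 of the 147 tested sites of the 8 loci at 6 h against 0 h and for 125 at 72 h against 0 h. Its share over all tested sites was not computed.

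SRF encodes the factor that binds the CArG box. Its promoter site (chromosome 6, 43170557 to 43171678) held 129 and 131 CPM at 0 h, 83.7 and 83.1 after 6 h, and 38.6 and 40.1 after 72 h. The 3 times did not overlap and the pairs of libraries lay close together. The log2 change was -0.64 at 6 h (SE 0.12, edgeR adjusted p = 2.9e-04) and -1.73 (SE 0.13, adjusted p = 5.9e-10) at 72 h. Both falls were called in 4 of 5 scalings, and loess offsets gave -0.11 and -0.031, neither called. Of all gene-start sites, 18.7% had a lower value at 6 h and 10.2% at 72 h, both under TMM. The loess values lay above the loess medians of gene starts (-0.21 and -0.37), so the place of SRF among gene starts turned with this scaling.

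EGR1 is the best known member of its family. Its promoter site (chromosome 5, 138463808 to 138465798), which holds both CArG boxes shown above, had 227 and 220 CPM at 0 h, 245 and 228 after 6 h, and 75.8 and 90.2 after 72 h. The 6 h libraries lay just above those at 0 h and the 72 h libraries far below both. The 6 h difference was 0.081 on the log2 scale (SE 0.12, edgeR adjusted p = 0.614), not called under TMM, RLE or total counts. It was called higher with loess offsets (0.81) and with shared-peak factors (0.38). At 72 h the log2 change was -1.43 (adjusted p = 2.5e-09), called lower in 4 scalings and turned to a called 0.7 with loess offsets. Among gene-start sites, 81.2% had a lower value than EGR1 at 6 h and 32.8% at 72 h under TMM, whereas with loess offsets the 72 h value of 0.7 lay above the gene-start median of -0.37.

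EGR2 has 3 RefSeq starts, and the strong site (chromosome 10, 62816136 to 62817206) covers the innermost one, with the CArG box shown above. It held 61.0 and 73.4 CPM at 0 h, 79.7 and 79.2 after 6 h, and 27.8 and 28.6 after 72 h, with no overlap between times. The log2 difference at 6 h was 0.24 (edgeR adjusted p = 0.175), called higher in 3 of 5 scalings but not under TMM. At 72 h it was -1.25 (adjusted p = 1.0e-07) under TMM, called lower in 3 scalings, and 0.23 with loess offsets, not called. A weaker site between the middle and inner starts (62817672 to 62818350) held 9.68 and 13.4, then 16.8 and 19.6, then 10.5 and 12.8 CPM. Its value was highest at 6 h (log2 fold change 0.66, adjusted p = 0.014), and the libraries at 72 h overlapped those at 0 h (0.0048, adjusted p = 0.985, though called higher in 3 scalings). That rise was lost without replicate 1 at 0 h (0.39, adjusted p = 0.179) or replicate 2 at 6 h (0.48, adjusted p = 0.177), with RLE factors and with DESeq2.

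EGR3 and EGR4 had weak sites at their annotated starts at 0 h. The EGR3 start site (chromosome 8, 22693254 to 22693463) had 12 and 11 reads at 0 h, 61 and 126 after 6 h, and 60 and 87 after 72 h, or 0.78 and 0.526, 5.20 and 3.99, and 1.55 and 2.05 CPM. It was highest at 6 h and did not overlap between times. Its log2 change was 2.81 at 6 h (SE 0.39, edgeR adjusted p = 6.1e-06), called higher in all 5 scalings, and 1.49 (adjusted p = 0.0025) at 72 h, called higher in 4. Of gene-start sites, 99.4% had a lower value at 6 h and 95% at 72 h, yet the site is short and overlapped no deposited peak in any library. The stronger EGR3 site (22694163 to 22696110) lay mostly upstream, with 52.9 and 73.2 CPM at 0 h, 77.1 and 92.5 after 6 h, and 40.2 and 48.3 after 72 h. The groups did not overlap, but the 2 libraries at 0 h were far apart. Its log2 fold change at 6 h was 0.43 (adjusted p = 0.035), called higher in 4 scalings but lost without replicate 1 at 0 h (0.15), without replicate 2 at 6 h (0.23), without either 72 h library (0.37 each) and with DESeq2 (0.28). At 72 h it was -0.51 (adjusted p = 0.0070), lost without replicate 2 at 0 h (-0.26) or replicate 1 at 72 h (-0.39), and called higher instead with loess offsets (1.06) and with shared-peak factors (0.46).

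The EGR4 promoter site (chromosome 2, 73293208 to 73294044) held 4.29 and 5.12 CPM at 0 h, 11.2 and 8.58 after 6 h, and 9.47 and 8.05 after 72 h. Both later times lay above both 0 h libraries, and they overlapped each other. The log2 change was 1.04 at 6 h (SE 0.24, edgeR adjusted p = 0.0015) and 0.89 (SE 0.23, adjusted p = 0.0021) at 72 h. It was the promoter site called higher in all 5 scalings at both times, and 94.2% and 91.9% of gene-start sites had lower values. The difference between 72 h and 6 h was -0.15 (adjusted p = 0.601).

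NAB2 and its neighbour NEMP1 start within the same site (chromosome 12, 57086882 to 57089268), so its reads cannot be split between the genes. It held 108 and 143 CPM at 0 h, 99.5 and 90.2 after 6 h, and 47.9 and 51.2 after 72 h, with no overlap between times. The log2 fold change at 6 h was -0.41 (edgeR adjusted p = 0.023), called in 2 scalings, positive with loess offsets (0.15, not called), and lost without replicate 2 at 0 h (-0.19) or replicate 2 at 6 h (-0.40). At 72 h it was -1.35 (adjusted p = 4.3e-08), called lower in 4 scalings and called higher with loess offsets (0.42). Among gene-start sites 46.4% had a lower value at 6 h and 40.8% at 72 h, near the middle under TMM but not with loess offsets, where both values lay above the gene-start medians of -0.21 and -0.37.

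The IER2 promoter site (chromosome 19, 13149987 to 13150656) also covers the end of STX10. It held 27.9 and 24.5 CPM at 0 h, 18.9 and 21.6 after 6 h, and 11.4 and 11.1 after 72 h. Each time lay below the one before it, and the place among gene-start sites was the middle (52.3% lower at 6 h, 51.1% at 72 h). The 6 h difference of -0.36 on the log2 scale was not called (edgeR adjusted p = 0.096; called with RLE size factors and with DESeq2), and the 72 h fall was -1.22 (adjusted p = 2.4e-06), called in 4 scalings. At IER3 the start site (chromosome 6, 30743960 to 30744816) held 25.5 and 27.3 CPM, then 35.6 and 38.1, then 19.0 and 18.8. It was highest at 6 h and lowest at 72 h without overlap. The 6 h rise was 0.48 (adjusted p = 0.016), called in 4 scalings and above 88.7% of gene-start sites. It was lost without replicate 1 at 0 h (0.37, adjusted p = 0.110), replicate 2 at 6 h (0.37, adjusted p = 0.168) or either 72 h library (0.43 each, adjusted p = 0.053), and with DESeq2. At 72 h the value was -0.48 (adjusted p = 0.0082), not called without replicate 2 at 72 h (also -0.48, adjusted p = 0.058), and turned to a called increase with loess offsets (0.56) and with shared-peak factors (0.48). A second, short IER3 site (30743484 to 30743716), with no deposited peak, gave 0.34 at 6 h (adjusted p = 0.378) and -0.61 at 72 h (adjusted p = 0.071). The latter was called with RLE size factors, with loess offsets and without replicate 1 at 0 h (-0.94, adjusted p = 0.0099).

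**Figure D1:**
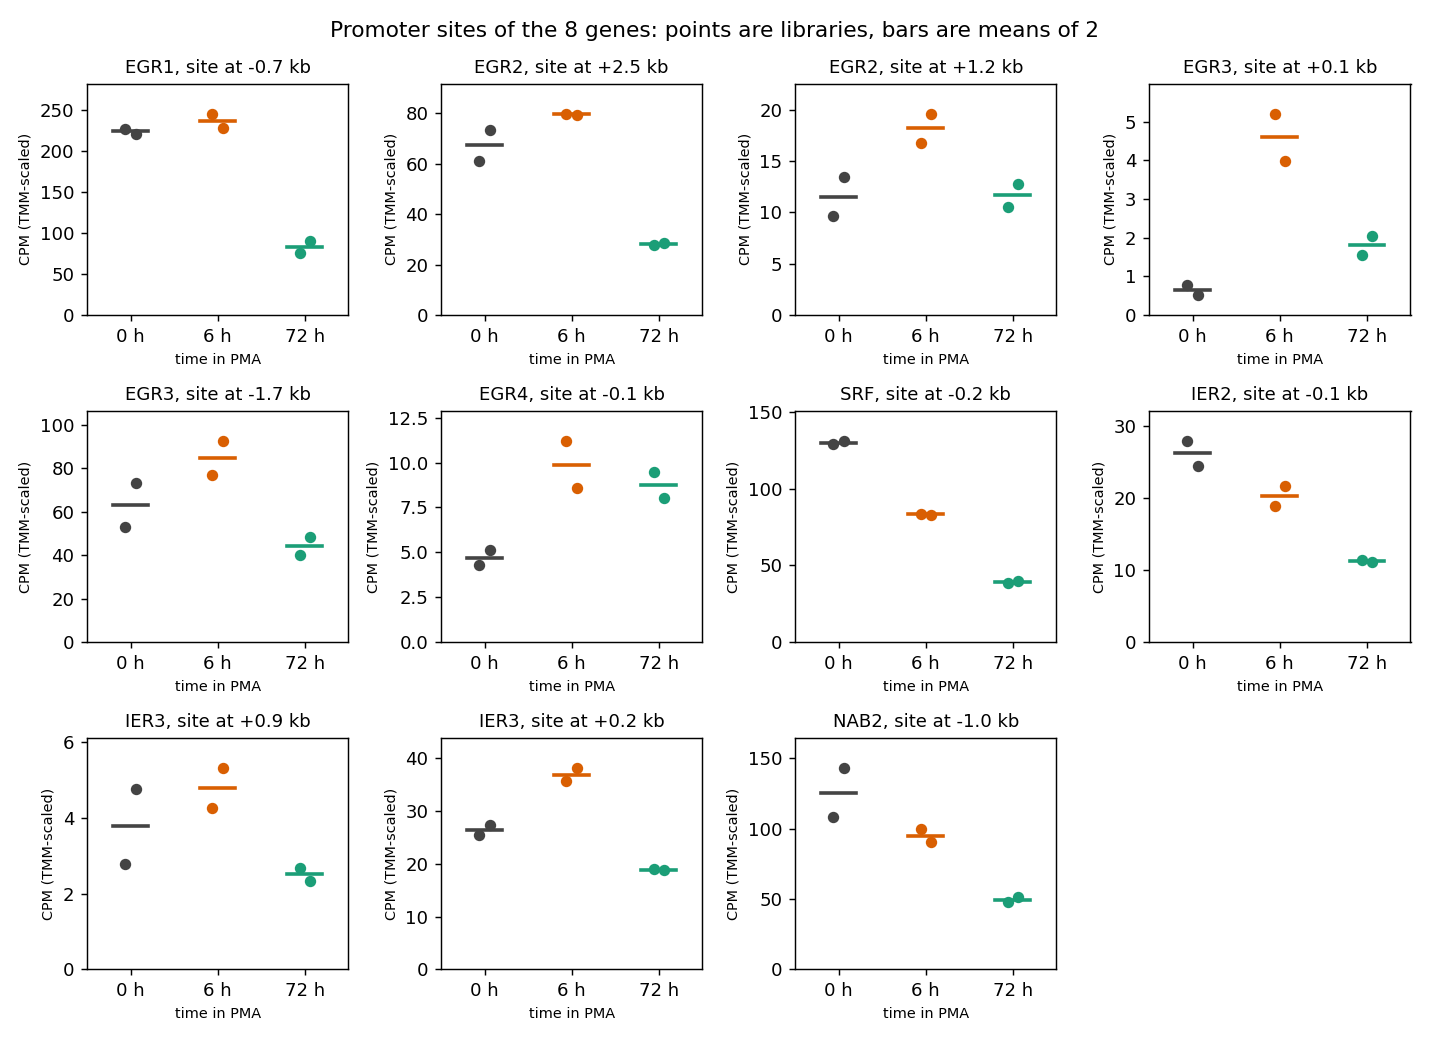
TMM-scaled CPM (vertical axes, linear from 0, each panel with its own range) of the 11 promoter sites at 0, 6 and 72 h; points are libraries and bars are means of 2. EGR4 and the EGR3 start site lay above 0 h at both later times, and the SRF and IER2 sites fell from 129 to 38.6 and from 27.9 to 11.4 CPM in replicate 1; the 72 h falls at EGR1, EGR2 (inner start), EGR3 (upstream site), IER3 (start site) and NAB2 turned to increases under loess offsets.

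**Figure D2:**
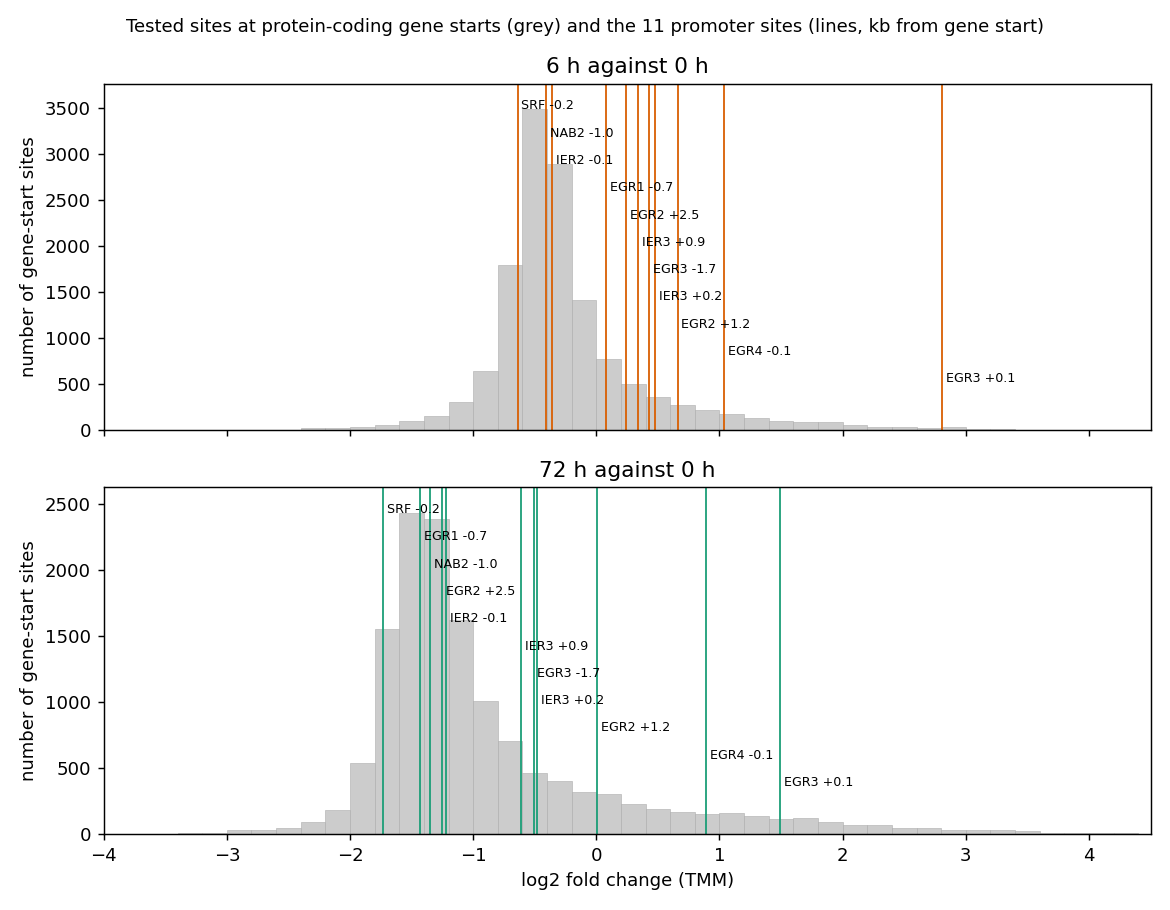
Distribution of log2 fold changes (TMM, horizontal axis) of the tested sites at protein-coding gene starts (grey bars, number of sites), with lines for the 11 promoter sites, at 6 h and at 72 h against 0 h. SRF lay on the left flank and EGR4 and the EGR3 start site far to the right at both times, and EGR1 was above 81.2% of gene-start sites at 6 h and 32.8% at 72 h. With loess offsets SRF, and EGR1 at 72 h, lay above the gene-start median instead.

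Per 1000 bases of site, promoter levels at 0 h were in the order SRF (116 ± 1.04 CPM per kb, SD, n = 2), EGR1 (112 ± 2.42), the inner EGR2 site (62.8 ± 8.19), NAB2 (52.7 ± 10.4), IER2 (39.1 ± 3.66), the upstream EGR3 site (32.4 ± 7.36), the IER3 start site (30.9 ± 1.49), the second EGR2 site (17 ± 3.91), the second IER3 site (16.3 ± 6.03), EGR4 (5.62 ± 0.698) and the EGR3 start site (3.11 ± 0.855). EGR2 and NAB2, IER2 and EGR3, EGR3 and IER3, and the second EGR2 and IER3 sites differed from each other by less than the larger SD of each pair. At 6 h the order began with EGR1 (119 ± 6.21), SRF (74.3 ± 0.407) and EGR2 (74.2 ± 0.371), and the latter pair differed by less than their SD. At 72 h it began with EGR1 (41.7 ± 5.12), SRF (35.1 ± 0.895) and EGR2 (26.3 ± 0.576), while the EGR4 site stood at 10.5 ± 1.21.

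A measure that does not depend on scaling between libraries is the share of a locus's counts that fell in its promoter sites. It moves with the counts of the other sites as well as with those of the promoter. With 2 libraries against 2 an exact permutation test cannot give p below 0.333, so no test is given, and exact 95% intervals cover counting error only. At EGR4 the share was 8.09% (6.31 to 10.2) and 8.31% (6.86 to 9.95) at 0 h, 27.6% (23.7 to 31.9) and 24.6% (22.1 to 27.2) after 6 h, and 30.6% (28 to 33.3) and 28.4% (25.8 to 31.0) after 72 h. Both later times lay well above 0 h. Under TMM the summed CPM of the whole EGR4 locus went from 53.0 and 61.6 to 40.4 and 34.9, then 30.9 and 28.4. At EGR1 the share was 56.7% and 58.5% at 0 h, 45.6% and 44.1% after 6 h, and 43.5% and 45.3% after 72 h, lower at both later times. From 0 to 6 h the EGR1 promoter went from 227 and 220 to 245 and 228 CPM. The summed EGR1 distal sites went from 157 and 140 to 276 and 273 CPM. At EGR2 the share was 64.2% in both libraries at 0 h, 68.4% and 63.9% after 6 h, and 46.7% and 50.5% after 72 h, so only the later time stood apart. At SRF the mean share was 37.0 ± 2.47% (SD, n = 2), 32.8 ± 2.47% and 25.0 ± 0.0%, at EGR3 39.8 ± 3.96%, 33.5 ± 1.34% and 25.5 ± 1.20%, and at NAB2 33.8 ± 4.53%, 33.5 ± 2.47% and 25.9 ± 0.566%. IER3 had 6.98 ± 0.170%, 9.59 ± 0.141% and 8.0 ± 0.304%, and IER2 had 7.19 ± 0.898%, 6.33 ± 0.247% and 5.37 ± 0.226%. All 4 later libraries lay above both 0 h libraries at EGR4 and IER3, and at none of the other 6 loci. With a window of 2500 bases, which takes in the site at 1.8 kb otherwise classed as a neighbour gene end, IER3 gave 20.8%, 27.0% and 23.0%. With 500 bases the EGR3 share, then from its start site alone, was 0.42%, 1.77% and 0.999%.

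**Figure D3:**
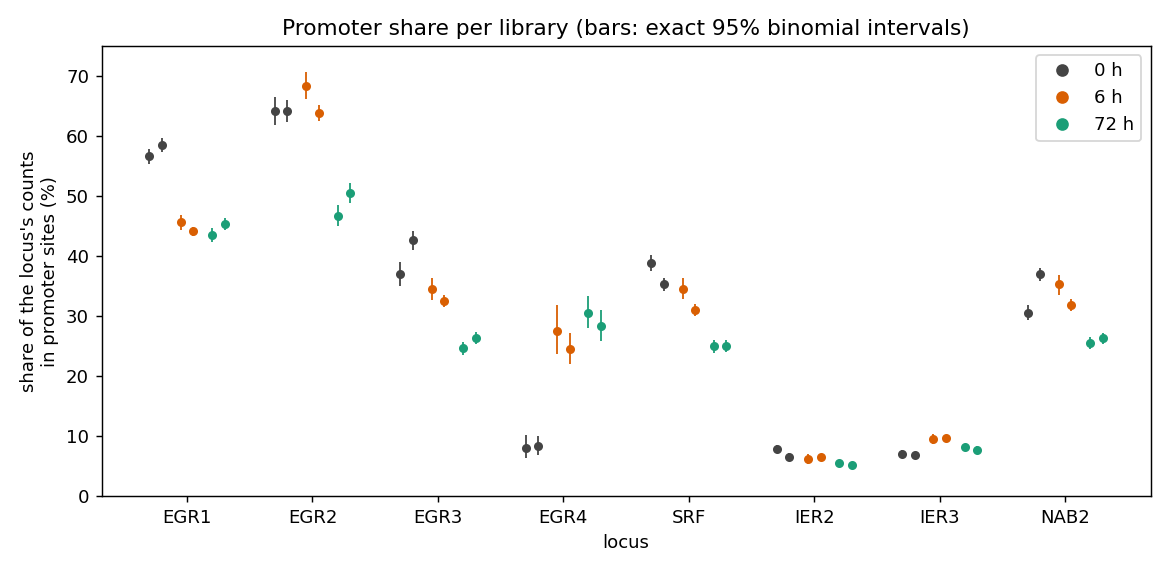
Share of each locus's counts in its promoter sites (percent, vertical axis) per library at 0, 6 and 72 h, with exact 95% binomial intervals. EGR4 went from 8.09% and 8.31% at 0 h to between 24.6% and 30.6% later, whereas EGR1 went from 56.7% and 58.5% to between 43.5% and 45.6%. The share also moves with the counts of the other sites of the locus.

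Over all 147 tested sites of the 8 loci, 37 were called higher and 27 lower at 6 h, 49 higher and 59 lower at 72 h against 0 h, and 23 higher and 56 lower at 72 h against 6 h. As shares these were 25.2% and 18.4%, 33.3% and 40.1%, and 15.6% and 38.1%, to be read beside the shares of all tested sites given above. Called in the same direction in all 5 scalings were 30 higher and 13 lower at 6 h and 35 higher and 12 lower at 72 h against 0 h. The share of all tested sites called in all 5 scalings was not computed, so such counts, here and for each locus below, have no background. The splits at 6 h were 30 higher and 33 lower with RLE size factors and 49 and 14 with shared-peak factors. At 72 h against 0 h they were 62 and 41 with total counts and 78 and 21 with shared-peak factors, and at 72 h against 6 h 34 and 33, 22 and 25 (loess offsets), and 50 and 15. Leaving out replicate 2 at 6 h lowered the calls higher at 6 h to 22, and the calls lower at 72 h against 6 h to 34. The latter were 34 without replicate 1 and 35 without replicate 2 at 72 h, and the calls higher in that comparison were 15 without replicate 2 at 72 h. The site just inside the 50 kb reach, upstream of SRF, had log2 values of 1.27 and 1.71, and the one just outside, downstream of NAB2, 0.70 and -0.17. At 6 h the 108 tested distal sites gave 31 higher and 14 lower (median log2 fold change 0.17). At 72 h against 0 h they gave 46 higher and 30 lower (0.43). Their shares higher, 28.7% and 42.6%, stand beside 23.4% and 38.2% of all tested sites. The 28 neighbour gene ends gave 1 higher and 11 lower (-0.3), and 1 higher and 22 lower (-1.2). Their shares lower, 39.3% and 78.6%, were near the 39.8% and 75.7% of all tested gene-start sites. Whether these classes differed beyond that was not tested. The neighbour gene end called higher at 6 h lies inside NAB2, 5.0 kb from its start and within 1000 bases of the end of STAT6 (7.47 and 5.98, 13.6 and 11.1, 6.26 and 6.58 CPM; 0.87, edgeR adjusted p = 0.0037), in all 5 scalings, and was named after its values were seen.

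**Figure D4:**
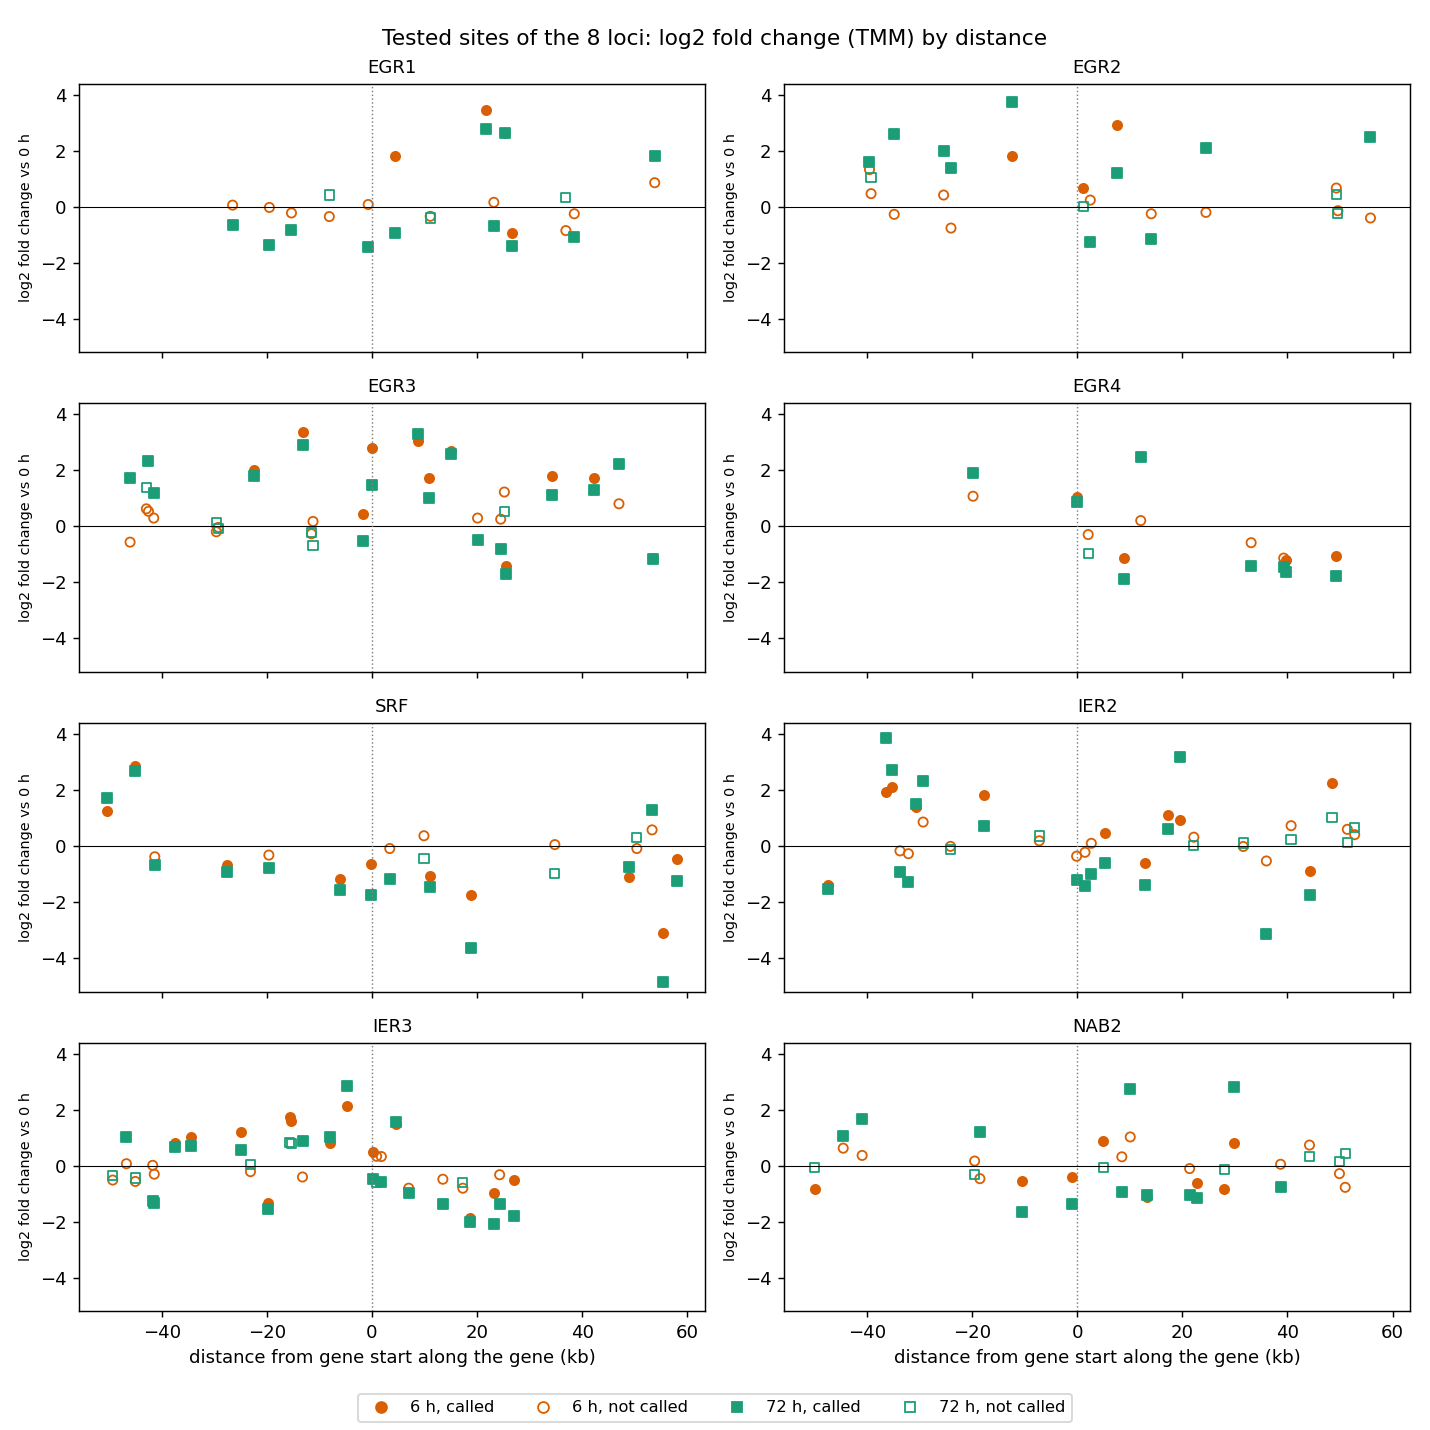
Log2 fold change against 0 h (TMM, vertical axis) of every tested site by its distance from the gene start along the gene (kb, horizontal axis), for the 8 loci; filled symbols were called by edgeR and open ones were not. At 72 h, 8 of 11 distal sites at EGR2 and 11 of 18 at EGR3 were called higher (5 and 10 in all 5 scalings). Around SRF, 7 of 11 distal sites were called lower at 72 h (2 in all 5 scalings). With its promoter site and neighbour gene ends, 11 of 17 SRF sites were called lower (4 in all 5 scalings). Over all tested sites 38.2% were called higher and 29.2% lower at 72 h, and gene starts gave 75.7% lower. The median of all tested sites at 72 h ran from -0.04 to 1.26 over 5 scalings.

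EGR1 held the distal site with the most counts at 6 h, over the 3′ end of the gene at 4.4 kb from its start (chromosome 5, 138468966 to 138470804). It had 64.2 and 37.1 CPM at 0 h, 184 and 176 after 6 h, and 22.2 and 30.3 after 72 h. The 6 h libraries stood far above all others, and the 0 h libraries differed from each other. The log2 fold change at 6 h was 1.83 (SE 0.19, edgeR adjusted p = 1.0e-07), called in all 5 scalings, and from 6 to 72 h it was -2.78, called lower in all 5. Against 0 h the 72 h value was -0.94 (adjusted p = 1.4e-04), called lower in 3 scalings, called higher with loess offsets (0.61) and 0.015 with shared-peak factors. Within each library its counts were 28.3% and 16.8% of those of the EGR1 promoter site at 0 h, 75.1% and 77.2% after 6 h, and 29.3% and 33.5% after 72 h, a ratio that needs no scaling. Downstream, a site at 21.8 kb (138486971 to 138487559) had 1.36 and 1.24, 13.9 and 14.8, and 9.16 and 8.59 CPM. It was called higher in all 5 scalings at 6 h (3.46, SE 0.26) and at 72 h (2.77), and had deposited peaks in all 4 libraries of the later times and in neither at 0 h. A site at 26.7 kb, nearest to ETF1, which encodes a translation release factor, went the other way, with 32.0 and 46.9, 21.9 and 19.3, and 15.5 and 14.5 CPM (-0.95 and -1.40, called lower in all 5 scalings at both times).

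**Figure D5:**
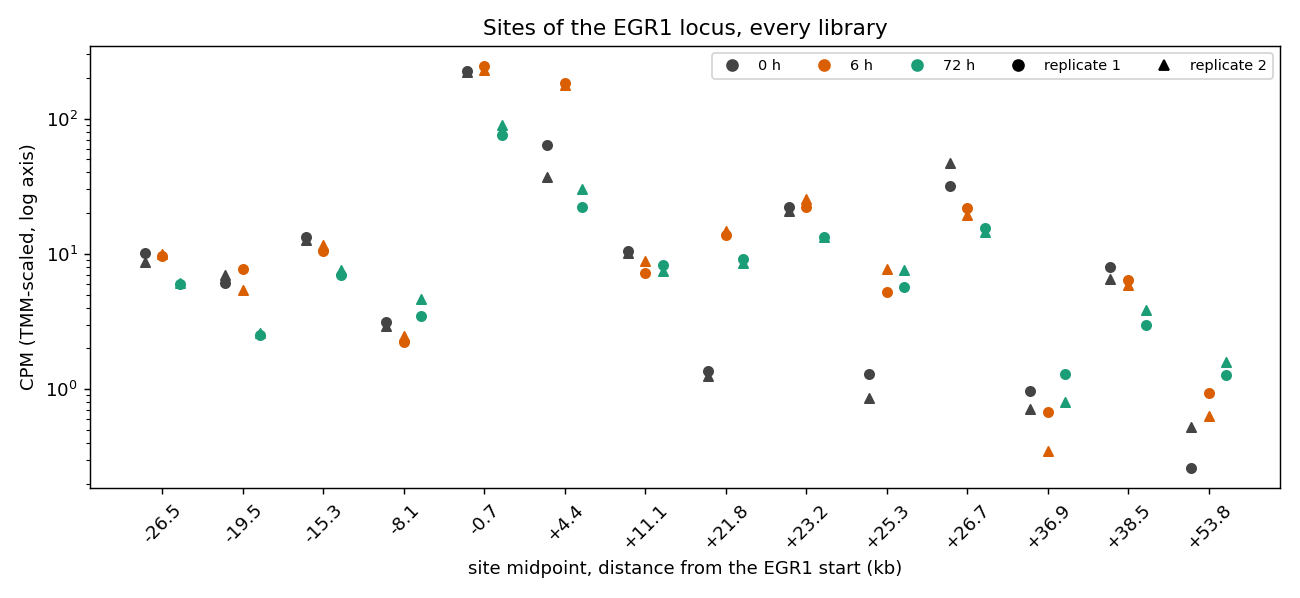
TMM-scaled CPM (vertical axis, log scale) of the 14 sites of the EGR1 locus in every library, in order of distance from the EGR1 start (horizontal axis, kb, not to scale). The site at 4.4 kb stood at 184 and 176 CPM at 6 h against 64.2 and 37.1 at 0 h, and the site at 21.8 kb went from 1.36 and 1.24 to 13.9 and 14.8 CPM.

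At EGR2, 8 of 11 distal sites were called higher at 72 h and none of the 11 had a log2 value below -0.24 (median 1.6), beside 38.2% called higher among all tested sites, and 5 of the 8 were called in all 5 scalings. At 6 h 2 were called higher. The site with the largest called rise at 6 h lay just past the 3′ end of the gene at 7.6 kb (chromosome 10, 62811235 to 62811897), with 1.1 and 2.29 CPM at 0 h, 8.44 and 17.4 after 6 h, and 5.13 and 3.09 after 72 h. It was highest at 6 h in both libraries, although these differed from each other. Its log2 change was 2.91 at 6 h (SE 0.36, edgeR adjusted p = 1.4e-06) and 1.22 (adjusted p = 0.0058) at 72 h, both in all 5 scalings, the latter lost without replicate 1 at 0 h (0.82) or replicate 1 at 72 h (0.81). Its counts were 1.81% and 3.12% of those of the inner promoter site at 0 h, 10.6% and 21.9% after 6 h, and 18.5% and 10.8% after 72 h. A site at -34.8 kb (62853586 to 62854262) showed another time course, with 0.78 and 0.574, 0.767 and 0.443, and 3.73 and 4.44 CPM. It did not differ beyond its spread at 6 h (-0.27, adjusted p = 0.694) and was called higher in all 5 scalings at 72 h (2.61, SE 0.39).

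EGR3 had 18 distal sites, of which 7 were called higher and 1 lower at 6 h, and 11 higher and 2 lower at 72 h (medians 0.58 and 1.24). All 7 at 6 h and 10 of the 11 at 72 h were called higher in all 5 scalings, and the shares higher, 38.9% and 61.1%, stand beside 23.4% and 38.2% of all tested sites. The site at -13.1 kb (chromosome 8, 22706268 to 22706847) had 0.65 and 0.287, 3.58 and 5.51, and 3.78 and 3.04 CPM, with log2 changes of 3.37 (SE 0.42, edgeR adjusted p = 1.4e-06) and 2.92. Past the 3′ end at 8.7 kb (22684509 to 22685077) the values were 0.455 and 0.478, 3.33 and 4.27, and 3.88 and 5.47 CPM (3.04 and 3.31). Both sites thus went up by 6 h and the 72 h libraries overlapped those at 6 h. The strongest distal site, at 34.3 kb within BIN3 (22658394 to 22659929), had 12 and 14.8, 41.5 and 51.0, and 26 and 32.4 CPM, highest at 6 h (1.79, and 1.12 at 72 h, all 5 scalings). Further into BIN3, at 53.5 kb, a site had 13.6 and 10.6, 5.29 and 5.70, and 4.97 and 5.73 CPM, lower in 5 scalings at 6 h (-1.13) and in 4 at 72 h (-1.17). BIN3 encodes a BAR-domain protein.

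EGR4 had 6 distal sites, 1 of which, at -46.1 kb, did not pass the count filter. The site at 12.1 kb (chromosome 2, 73281173 to 73281746), within FBXO41, had 0.585 and 0.669, 0.853 and 0.664, and 3.55 and 3.52 CPM, and was called higher at 72 h (2.47, SE 0.38, edgeR adjusted p = 7.7e-06, all 5 scalings; 0.21 at 6 h, adjusted p = 0.754). The site at 49.3 kb, within CCT7, a chaperonin subunit gene, had 5.00 and 5.12, 2.90 and 2.09, and 1.60 and 1.37 CPM. It was lower at 6 h (-1.07, called in 4 scalings, lost without replicate 2 at 6 h with -0.86 and adjusted p = 0.093) and at 72 h (-1.77, all 5). The site with the highest mean, at 33.1 kb, had 7.54 and 10.9, 6.40 and 6.04, and 3.65 and 3.30 CPM, with -0.58 at 6 h (adjusted p = 0.063; called with RLE size factors, with loess offsets, without replicate 1 at 0 h, at -0.88, with DESeq2, at -0.73, and under the replicate block, adjusted p = 0.046) and -1.41 at 72 h, called in 4 scalings.

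At SRF, 2 of 11 distal sites were called higher and 4 lower at 6 h, and 2 higher and 7 lower at 72 h (medians -0.32 and -0.79). As shares these were 18.2% and 36.4%, and 18.2% and 63.6%, beside 23.4% and 16.8%, and 38.2% and 29.2%, of all tested sites. All 5 scalings gave 2 higher and 3 lower at 6 h, and 2 and 2 at 72 h. The site at -45 kb in PTK7 (chromosome 6, 43125903 to 43126719), the gene of a receptor-like pseudokinase, had 1.75 and 1.67, 10.8 and 13.7, and 11.4 and 10.6 CPM. It was called higher in all 5 scalings at 6 h (2.85, SE 0.26, edgeR adjusted p = 1.7e-08) and at 72 h (2.69). A site at 18.8 kb in CUL9 (43189769 to 43190351) had 3.77 and 3.49, 0.853 and 1.20, and 0.362 and 0.212 CPM, lower at each step (-1.75 and -3.65, all 5 scalings), with deposited peaks in both 0 h libraries and in no other. The strongest distal site lay within SRF itself at 3.4 kb (43174319 to 43175070), with 57.1 and 62.2, 55.0 and 57.4, and 26.3 and 26.1 CPM. Its libraries at 6 h overlapped those at 0 h (-0.086, adjusted p = 0.653), and its 72 h value was -1.19, called in 3 scalings and 0.19 with loess offsets. The neighbour gene end with the lowest values of all 148 sites, nearest to DNPH1 (43226514 to 43226747), was named after its values were seen. It had 75 and 85 reads at 0 h, 4 and 19 after 6 h, and 6 and 6 after 72 h, with log2 changes of -3.10 and -4.87 in all 5 scalings called lower.

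At NAB2, 1 of 14 distal sites was called higher and 4 lower at 6 h, and 5 higher and 3 lower at 72 h. The 72 h shares, 35.7% and 21.4%, were near those of all tested sites (38.2% and 29.2%), and those at 6 h were 7.14% and 28.6% beside 23.4% and 16.8%. All 5 scalings gave 0 higher and 1 lower at 6 h, and 2 and 0 at 72 h. The site at 29.8 kb (chromosome 12, 57118518 to 57119311) had 1.30 and 1.63, 2.13 and 2.91, and 10.5 and 10.2 CPM. Its 6 h value, 0.82 (edgeR adjusted p = 0.040), was called in 3 scalings and lost without any library but replicate 1 at 6 h (0.47 to 1.01). At 72 h it was 2.80 (SE 0.28, adjusted p = 2.3e-08) in all 5 scalings. A site at 13.3 kb in STAT6, the gene of an interleukin-activated transcription factor, had 26.2 and 20.4, 10.5 and 10.9, and 11.5 and 10.7 CPM. It fell by 1.11 on the log2 scale at 6 h (all 5 scalings) and the 72 h libraries overlapped those at 6 h (-1.06 against 0 h, 4 scalings). The strongest distal site, at -10.4 kb in NEMP1, had 95.2 and 107, 70.7 and 67.9, and 30.1 and 34.4 CPM (-0.55, 3 scalings, and -1.65, 4 scalings).

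The IER2 gene body held 2 distal sites, at 1.5 and 2.7 kb. The nearer had 55.4 and 53.5, 47.4 and 46.3, and 19.1 and 21.7 CPM, with -0.22 at 6 h (edgeR adjusted p = 0.243) and -1.41 at 72 h, called in 4 scalings. The other had 37.1 and 34.3, 39.4 and 37.4, and 17.7 and 17.7 CPM, with 0.10 (adjusted p = 0.611) and -1.01, called in 3. Neither was called at 6 h under TMM and both were lower at 72 h. In TRMT1, a tRNA methyltransferase gene, the site at -36.3 kb (chromosome 19, 13113856 to 13114362) had 0.325 and 0.382, 0.426 and 1.96, and 5.64 and 5.03 CPM, and was called higher in all 5 scalings at 72 h (3.88, SE 0.48, adjusted p = 4.1e-07). Its rise at 6 h (1.95) rested on replicate 2, without which it was 0.20 (adjusted p = 0.878). The next site, at -35.3 kb, had 0.975 and 0.526, 1.53 and 4.30, and 4.76 and 4.81 CPM (2.11 at 6 h, 1.02 and adjusted p = 0.157 without replicate 2 at 6 h, and 2.71 at 72 h). Downstream, the strongest distal site at 13 kb had 55.8 and 64.6, 36.7 and 41.5, and 22.8 and 23.6 CPM (-0.62, 3 scalings, and -1.38, 4 scalings). The site at 36 kb had 3.70 and 3.97, 3.58 and 1.99, and 0.311 and 0.543 CPM, with -0.53 at 6 h (adjusted p = 0.238) and -3.15 at 72 h in all 5 scalings. At 44.3 kb the values were 4.48 and 4.45, 2.05 and 2.63, and 1.35 and 1.32 CPM, with -0.90 at 6 h, called in 3 scalings and not called without replicate 2 at 0 h (also -0.9, adjusted p = 0.061) or replicate 1 at 6 h (-0.76), and -1.74 at 72 h in all 5.

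IER3 had 18 distal sites, of which 8 were called higher and 1 lower at 6 h, each in all 5 scalings, and 8 higher and 5 lower at 72 h, of which 6 and 0 held in all 5. The shares at 72 h, 44.4% and 27.8%, stand beside 38.2% and 29.2% of all tested sites, and those at 6 h, 44.4% and 5.56%, beside 23.4% and 16.8%. The site at -4.8 kb (chromosome 6, 30748939 to 30749699) had 0.845 and 1.20, 4.35 and 4.75, and 7.38 and 7.65 CPM. It was higher at each step without overlap, by 2.14 at 6 h (SE 0.31, edgeR adjusted p = 1.2e-05) and 2.85 at 72 h on the log2 scale, in all 5 scalings. The strongest distal site, at -24.9 kb, had 23.3 and 21.8, 48.1 and 54.4, and 32.4 and 34.8 CPM, highest at 6 h (1.19, and 0.58 at 72 h, all 5 scalings; DESeq2 gave 0.40 at 72 h, adjusted p = 0.051). At -19.8 kb the values were 5.33 and 3.30, 1.53 and 1.80, and 1.89 and 1.04 CPM, with -1.33 at 6 h, lost without replicate 1 at 0 h (-1.02, adjusted p = 0.059), and -1.55 at 72 h, called in 4 scalings and not with shared-peak factors (-0.58, adjusted p = 0.152).

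Deposited peaks, called per library, were present in all 6 libraries at 52 of the 148 sites (35.1%; 19.8% of the whole table) and in both 72 h libraries alone at 24 (16.2%; 18.2%). A peak in both libraries of 6 h and of 72 h and in neither at 0 h marked 6 sites (4.05%; 7.34%), and 18 sites (12.2%; 10.3%) overlapped no peak. Of the promoter sites 7 had a peak in all 6 libraries and 2 in none. The authors' deposited table classes 124 of the 148 sites as static (83.8%; 79.2% of the whole table), 16 as upLate (10.8%; 11.7%), 5 as downEarly (3.38%; 4.94%), 2 as upEarly (1.35%; 3%) and 1 as downLate (0.676%; 1.1%). The class names did not always follow the deposited log2 change at 72 h. Of the downEarly sites, those at EGR2 (2.24), IER3 (2.60) and NAB2 (2.40) were positive and those at SRF negative (-3.70 and -4.94). The deposited values of these sites at 6 h were -0.23 at EGR2, 1.87 at IER3, 0.59 at NAB2, and -1.67 and -3.11 at SRF. Among the upLate sites, an EGR4 site (-2.01) and an IER2 site (-3.20) were negative at 72 h and the rest positive. The authors' deposited table has 10 of the 11 promoter sites as static and the EGR3 start site as upLate, and its upEarly sites are those at 7.6 kb from EGR2 and 29.8 kb from NAB2. The authors' deposited table gave the EGR1 site at 4.4 kb a log2 change at 6 h of 1.55 and the class static.

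Other genes of the pathway were read at their promoter sites by the same rule. Of 28 genes, 27 had a site (none for FLNA), with 43 sites in all, and edgeR called 9 higher and 10 lower at 6 h (median log2 fold change -0.03) and 8 higher and 29 lower at 72 h (-0.96), beside medians of -0.38 and -1.23 for all gene-start sites. These counts and those of the 3 lists below are to be read beside the gene-start shares called, 7.46% higher and 39.8% lower at 6 h and 8.37% and 75.7% at 72 h. Among the 22 sites of 14 immediate early genes, 6 were higher and 4 lower at 6 h (median 0.15), and 4 higher and 17 lower at 72 h (-1.0), the latter near the share among gene starts. ATF3, a stress-responsive factor, had 3 weak sites, all called higher at 6 h in all 5 scalings (1.73, 2.95 and 2.5). FOS, a component of AP-1, had 24.0 and 21.3 CPM at 0 h, 32.0 and 31.2 after 6 h, and 11.4 and 12.6 after 72 h (0.48, 4 scalings, and -0.91, 3 scalings), and FOSB had 1 of its 2 sites higher at 6 h in all 5 scalings (0.92). PPP1R15A, a stress-induced phosphatase subunit, had both sites lower at 6 h (-0.57, 3 scalings, and -0.69, 4 scalings). Of the 10 sites of ternary complex factors and SRF cofactors, 2 were higher and 3 lower at 6 h, and 3 higher and 5 lower at 72 h. ELK4 was lower at 6 h (-0.54, 3 scalings) and MRTFA had both a higher site (1.57, all 5 scalings) and a lower one (-0.50, 3 scalings). Of the 10 sites of cytoskeletal SRF targets, 1 was higher and 3 lower at 6 h, and 1 higher and 6 lower at 72 h. VCL, encoding the adhesion protein vinculin, held the higher one (10.5 and 16.3, 26.7 and 30.6, 17.7 and 20.1 CPM; 1.1, all 5 scalings) next to a stronger site that was lower (-0.47, 3 scalings). NAB1, the paralogue of NAB2, had 1 site, not called at 6 h (-0.39, edgeR adjusted p = 0.055) and lower at 72 h in all 5 scalings (-1.57).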

How the data were processed

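ATAC-seq was measured in 6 K562 libraries, 2 per time in 25 nM PMA. The authors deposited whole-number counts per site and library, with their log2 fold changes, adjusted p-values (identical in both time columns) and class names in the same table. Per-library peak lists from the authors give a score, a fold enrichment and the −log10 of p and q per peak, used only for peak presence and summits. Per the submitters' processing notes the tools were Trim Galore 0.4.3, BWA 0.7.17, SAMtools 1.9, deepTools 3.0.1, MACS2, bedtools 2.26 and DESeq, with build hg38; their order, any shift for the transposase and the counting rule are not given in the sources used here. Table starts matched BED starts of peaks (37248 sites, against 2392 shifted by 1) and are printed 1-based.

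Counts were fitted with edgeR 4.0.16 in R 4.3.3 (filterByExpr, TMM, quasi-likelihood F test, 3 time groups in 1 model of all 6 libraries, Benjamini-Hochberg over 177759 tested sites; 3376 were filtered). The common dispersion corresponded to a coefficient of variation of 0.166, and no pair of libraries agreed within sampling noise. The model was tested on simulated counts with known increases at a small share of sites, at 6 h only, so this does not test the scaling between libraries. The members and lists were chosen with earlier results of these data known. The count over the cell type marker lists is not reported here. Named distal sites were, per locus, the called sites with the largest rise and fall at each time (mean CPM of at least 1, no overlap between groups) and the site with the highest mean. RefSeq genes (GRCh38.p14) gave positions without exons; the strand of EGR3, IER3 and some list genes came from general knowledge. Alternatives were 4 other scalings, DESeq2 1.42.0, no filter, a stricter threshold, a replicate block, leaving out each library, reaches of 25 and 100 kb, and promoter windows of 500 and 2500 bases. The labels name no molecular identifiers, so binomial intervals cover counting error only. Motifs were searched in the RefSeq promoters and not in the sites, since no genome was used here.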

Additional observations from a re-analysis of the deposited data

How the results depend on the processing

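The number of sites called moved by more than 1.5 times mainly with the scaling. It also moved with the reach of the loci, but the reach sets how many sites are counted (84 at 25 kb, 148 at 50 kb and 294 at 100 kb). The counts at other reaches therefore do not show whether the shares called depend on the reach. With shared-peak factors (TMM over sites with a peak in every library), 14 sites were lower at 6 h (27 under TMM), 78 higher (49) and 21 lower (59) at 72 h, and 50 higher (23) and 15 lower (56) at 72 h against 6 h. The last count was 33 with total counts and 25 with loess offsets. At a threshold of 0.01 with a log2 change beyond 1 either way, 13 were lower at 6 h, and 14 were higher and 22 lower at 72 h against 6 h. A reach of 25 kb (84 sites) gave 16 lower at 6 h, 26 higher and 38 lower at 72 h, and 12 higher at 72 h against 6 h. A reach of 100 kb (294 sites) gave 72 higher and 57 lower sites at 6 h, 106 and 123 by 72 h, and 48 and 97 from 6 to 72 h. Leaving out 1 library gave 22 to 40 higher and 23 to 30 lower sites at 6 h, 37 to 49 and 51 to 61 by 72 h, and 15 to 25 and 34 to 58 at 72 h against 6 h.

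At single sites, 12 values changed sign with a call in the main fit or in the alternative. Sign changes with no call in either were not counted, and beyond what the alternatives themselves do the cause was not tested. With loess offsets, fitted on the trend of change with count level, the log2 fold change at 72 h against 0 h became 0.7 at the EGR1 promoter, 0.61 at the EGR1 site at 4.4 kb, 0.23 at the inner EGR2 site, 1.06 at the upstream EGR3 site, 0.19 at the SRF site at 3.4 kb, 0.56 at the IER3 start site and 0.42 at the NAB2 promoter, and at 6 h 0.15 at NAB2. With shared-peak factors it became 0.015 at the EGR1 site at 4.4 kb, 0.46 at the upstream EGR3 site and 0.48 at the IER3 start site, and with total counts 0.017 at the latter. With each named site, time and alternative counted as a case, a call was lost in 75 cases and gained in 18. The losses include those from the stricter threshold, which was applied to the main fit itself. A further 961 comparisons were counted as unchanged. They include promoter shares, which have no call, and sign changes with no call in either fit. Promoter shares at 0, 6 and 72 h with a window of 2500 bases, which takes in sites otherwise classed as distal or neighbour gene ends, were 54.0%, 54.8% and 41.7% at SRF, 31.9%, 33.0% and 23.6% at IER2, 20.8%, 27.0% and 23.0% at IER3 and 10.2%, 28.5% and 31.5% at EGR4. With 500 bases they were 0.42%, 1.77% and 0.999% at EGR3 and 6.12%, 8.48% and 7.06% at IER3.

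The replicate block, on numbers that the labels do not tie to a shared culture or day (correlations of replicate differences 0.082, 0.053 and 0.085), gave 39 higher and 29 lower sites at 6 h, 48 and 59 by 72 h, and 23 and 58 from 6 to 72 h. It changed 1 call at the named sites, the EGR4 site at 33.1 kb at 6 h. Sites with few reads, such as the EGR3 start site at 0 h, and the shallow replicate 1 at 6 h limit the precision.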
